A study of Mus musculus with 2 samples.

Results

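The 78 mitochondrial ribosomal protein genes of the mouse were examined for peaks of the deubiquitinase Usp16, which removes ubiquitin from histone H2A. The genes are all protein-coding genes of the RefSeq annotation whose symbol begins with Mrpl or Mrps and a digit, 78 of 21887 protein-coding genes on the assembled nuclear chromosomes. There were 49 Mrpl genes, named for the large subunit, and 29 Mrps genes, named for the small subunit. The measurement was chromatin immunoprecipitation with sequencing (ChIP-seq) of bone marrow cells positive for c-Kit and Sca-1, a pair of surface markers by which blood stem cells and early progenitors are sorted. The anti-Usp16 library came from mice carrying Mx1-Cre, an inducible recombinase gene driven by an interferon-responsive promoter, together with loxP-flanked Usp16 alleles. The labels do not say whether Cre was induced, so the Usp16 state of the cells is not known. An IgG library was prepared from the same kind of cells and genotype. Each antibody had 1 library, with no replicate, and the labels do not say how many mice were used.

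The data are 1 list of 5079 peaks called by the authors with MACS, of which 5046 lie on assembled chromosomes. Each peak has a position and a score, the authors' value from the peak caller, which serves here to describe and rank peaks within this list. The lowest score is 50, so a weaker site is not listed and a gene without a peak is not shown to lack Usp16. Read depth and the IgG signal are unknown here, and a peak list holds no expression values by which the cell type could be checked. With 1 list no difference below was tested. Shares carry exact Clopper-Pearson 95% intervals, which cover counting error only, and neighbouring genes can share a peak.

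The mitochondrial ribosome, or mitoribosome, translates the few proteins encoded by mitochondrial DNA, which are subunits of the respiratory chain and of ATP synthase. Its RNAs are made inside the organelle, but its proteins are encoded in the nucleus, translated in the cytosol and imported. Many of these proteins descend from bacterial ribosomal proteins, and others have no bacterial counterpart. The symbol does not always give the subunit: Mrps18a and Mrps30 proteins sit in the large subunit, and Mrps36 is now assigned to the 2-oxoglutarate dehydrogenase complex.

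The promoters of 6 of the genes are shown first because the results turn on where a peak lies around the transcription start. They belong to the highest-scoring peaks that cover a listed start, and run from 250 bases before to 50 bases after that start, 5′ to 3′ on the gene's strand (RefSeq, GRCm38.p6). Capitals mark matches to 4 motifs in either orientation: CCGGAAG of the ETS family, the NRF1 motif, AAGATGGCG of YY1 and CCAAT of NF-Y. No exact match to these or to the other 5 motifs searched was found in the Mrpl44 and Mrpl47 promoters. The NRF1 motif was searched only as a fixed string, the longer stretch in capitals in the Mrpl39 promoter. The Mrpl44 promoter holds this string with C in place of T, a form that was not searched.
Mrpl44, chr1:79775768-79776067, plus strand: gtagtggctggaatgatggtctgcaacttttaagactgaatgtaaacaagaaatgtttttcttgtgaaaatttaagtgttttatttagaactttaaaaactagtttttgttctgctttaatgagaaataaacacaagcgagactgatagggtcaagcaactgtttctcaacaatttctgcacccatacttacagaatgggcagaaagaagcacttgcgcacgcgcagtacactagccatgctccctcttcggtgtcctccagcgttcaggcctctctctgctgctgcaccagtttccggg
Mrpl21, chr19:3282792-3283091, plus strand: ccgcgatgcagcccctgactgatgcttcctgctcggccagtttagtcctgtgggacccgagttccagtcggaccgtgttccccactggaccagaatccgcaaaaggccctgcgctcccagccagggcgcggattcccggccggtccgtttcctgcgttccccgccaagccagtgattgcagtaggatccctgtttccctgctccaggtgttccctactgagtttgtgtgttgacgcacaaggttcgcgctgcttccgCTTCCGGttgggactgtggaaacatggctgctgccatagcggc
Mrpl3, chr9:105053018-105053317, plus strand: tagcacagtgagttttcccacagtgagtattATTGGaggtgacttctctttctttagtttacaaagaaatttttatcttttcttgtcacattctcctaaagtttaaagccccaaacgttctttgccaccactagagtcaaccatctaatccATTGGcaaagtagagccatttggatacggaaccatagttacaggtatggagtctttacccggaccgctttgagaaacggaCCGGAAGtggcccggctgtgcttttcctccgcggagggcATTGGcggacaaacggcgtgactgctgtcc
Mrps27, chr13:99344536-99344835, plus strand: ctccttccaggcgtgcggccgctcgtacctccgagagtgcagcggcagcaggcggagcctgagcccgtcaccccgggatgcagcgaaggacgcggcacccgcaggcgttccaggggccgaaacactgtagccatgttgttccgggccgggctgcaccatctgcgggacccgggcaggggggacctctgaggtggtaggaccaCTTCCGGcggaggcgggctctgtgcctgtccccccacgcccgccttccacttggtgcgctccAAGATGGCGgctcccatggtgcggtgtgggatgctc
Mrpl47, chr3:32736706-32737005, minus strand: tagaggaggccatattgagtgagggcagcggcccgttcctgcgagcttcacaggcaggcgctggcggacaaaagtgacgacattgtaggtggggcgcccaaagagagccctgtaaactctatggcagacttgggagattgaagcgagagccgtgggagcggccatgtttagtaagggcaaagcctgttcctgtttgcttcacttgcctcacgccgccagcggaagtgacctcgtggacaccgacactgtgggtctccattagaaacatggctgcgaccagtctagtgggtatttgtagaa
Mrpl39, chr16:84735195-84735494, minus strand: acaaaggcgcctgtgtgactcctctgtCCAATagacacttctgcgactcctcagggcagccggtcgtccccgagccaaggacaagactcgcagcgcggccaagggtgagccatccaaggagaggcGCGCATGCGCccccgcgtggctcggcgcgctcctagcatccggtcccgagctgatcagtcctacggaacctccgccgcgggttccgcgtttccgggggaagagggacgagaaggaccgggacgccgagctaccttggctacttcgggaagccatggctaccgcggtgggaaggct

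Peaks were listed at the ends of 36 of the 78 mitochondrial ribosomal protein genes (46.2%, 95% interval 34.8 to 57.8%), against 13.9% of all protein-coding genes. A gene was counted if at least 1 bp of a peak fell within 1 kb of either annotated end. Each of the 36 genes had 1 such peak, and the 36 peaks were distinct. The genes with a peak lay on 16 of the 17 chromosomes that hold a member. Chromosome 6, with 5 of 7 members, and chromosome 17, with 4 of 8, carried the most. Neither of the 2 members on chromosome 10 had one. With the peaks scoring at or above the median of the list, 26 of the 78 genes kept a peak (33.3%), against 7.99% of protein-coding genes.

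Both subunits carried peaks at a similar share. Of the 49 Mrpl genes 22 had a peak (44.9%, interval 30.7 to 59.8%), and of the 29 Mrps genes 14 did (48.3%, interval 29.4 to 67.5%). With genes placed by the assembled particle, the large subunit had 23 of 51 and the small subunit 12 of 26 (45.1% and 46.2%). The intervals of the 2 subunits overlap in both versions. With the peaks at or above the median score the order turned, to 18 of 49 Mrpl genes and 8 of 29 Mrps genes (36.7% and 27.6%). Families with a bacterial counterpart had 23 of 48 (47.9%) and mitochondrion-specific proteins 13 of 30 (43.3%). By symbol, within the Mrpl genes the bacterial families stood at 16 of 30 and the specific proteins at 6 of 19. Within the Mrps genes they stood at 7 of 18 and 7 of 11, the opposite order, with overlapping intervals in both. These Mrps counts include Mrps18a, Mrps30 and Mrps36.

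**Figure D1:**
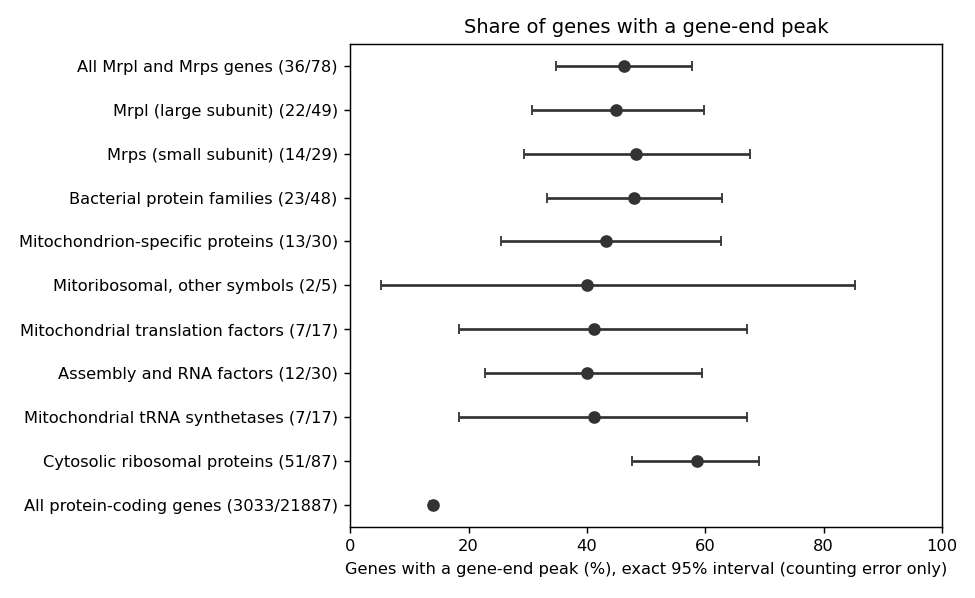
Share of genes with a gene-end peak (x axis, percent) for the Mrpl and Mrps genes, their subgroups, related gene lists and all protein-coding genes (y axis, with counts). Points are shares and bars exact 95% intervals for counting error. The 2 subunits stand at 44.9% and 48.3%, and all protein-coding genes at 13.9%.

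The highest score was at Mrpl44, a ribonuclease III-like protein of the large subunit, with a score of 318, rank 82 in the list (chr1:79775760-79776433, 674 bp wide). Mrpl21, of a bacterial large subunit family, followed with 226 (chr19:3282584-3283349, 766 bp). Mrpl3, whose bacterial homolog reaches toward the site of peptide bond formation, had 222 (chr9:105052885-105053423, 539 bp). These 3 peaks all cover the gene's listed start, printed above. Mrpl47, the counterpart of bacterial L29, had a peak of score 174 (chr3:32736453-32737363, 911 bp). Mrpl13, of a universally conserved family, had 164 (chr15:55557194-55557796, 603 bp). Mrpl39, which has no bacterial ribosomal counterpart, had 157 (chr16:84735010-84735607, 598 bp).

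Several further large subunit genes had scores that lay close together. Mrpl28, of a bacterial family, had 153 (chr17:26122967-26123879, 913 bp). Mrpl12, the homolog of the bacterial stalk protein L7/L12 that recruits translation factors, had 151 (chr11:120484310-120484974, 665 bp). Mrpl1, of the mobile stalk at the tRNA exit side in bacteria, also had 151 (chr5:96209811-96210432, 622 bp). Mrpl30 had 147 (chr1:37890180-37890810, 631 bp), and this gene too has bacterial relatives. Mrpl19, another bacterial family, had 141 (chr6:81965721-81966266, 546 bp). Mrpl11, at the base of the factor-binding stalk in bacteria, had the same rounded score of 141 at a width of 834 bp.

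The remaining large subunit peaks ran down to the lower limit of the list. Mrpl20, whose bacterial homolog is needed early in assembly, scored 131. Mrpl35 scored 114 and Mrpl16 scored 93.9, both of bacterial families. Mrpl58, a peptidyl-tRNA hydrolase that releases stalled chains, scored 98.0. Mrpl17 scored 79.6, Mrpl40 scored 77.0 and Mrpl48 scored 69.6. The lowest were Mrpl34 at 56.5, Mrpl53 at 54.8 and Mrpl2 at 54.4. Mrpl2 belongs to the conserved core near the peptidyl transferase centre.

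The peaks at the 14 Mrps genes, which by symbol include Mrps30 and Mrps36, ranged from 191 to 51.4. Mrps27, a pentatricopeptide repeat protein, had a peak of score 191 (chr13:99344299-99345014, 716 bp). Mrps18c, a homolog of bacterial S18, scored 117, and Mrps12, whose bacterial homolog lines the decoding site, scored 101. Mrps31 at 96.8, Mrps7 at 96.4 and Mrps30 at 93.3 followed. Mrps7 is the homolog of the bacterial protein that nucleates the head of the small subunit. Mrps5 scored 83.7 and Mrps34 scored 81.4. Mrps35, Mrps16 and Mrps36 scored 69.6, 66.4 and 65.5. The lowest were Mrps33 at 61.7, Mrps17 at 60.8 and Mrps18b at 51.4.

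The median score was 141 for the 22 Mrpl peaks (quartiles 83.2 and 156) and 82.6 for the 14 Mrps peaks (quartiles 65.7 and 96.7). The order-statistic 95% intervals of these medians, 79.6 to 157 for Mrpl and 61.7 to 101 for Mrps, overlap, and no test was made. Over all 36 peaks the median was 97.4 (quartiles 69.6 and 151), against 74.4 for the 2466 peaks at protein-coding gene ends (quartiles 59.9 and 106). Of the 36 peaks, 10 ranked within the first 507 of the list, which has 5079 peaks. The share of all protein-coding gene-end peaks within the first 507 is not given here. At or above the median score of the list were 26 of the 36 peaks and 1394 of the 2466. The median score was 117 for bacterial families and 81.4 for mitochondrion-specific proteins, with overlapping ranges.

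**Figure D2:**
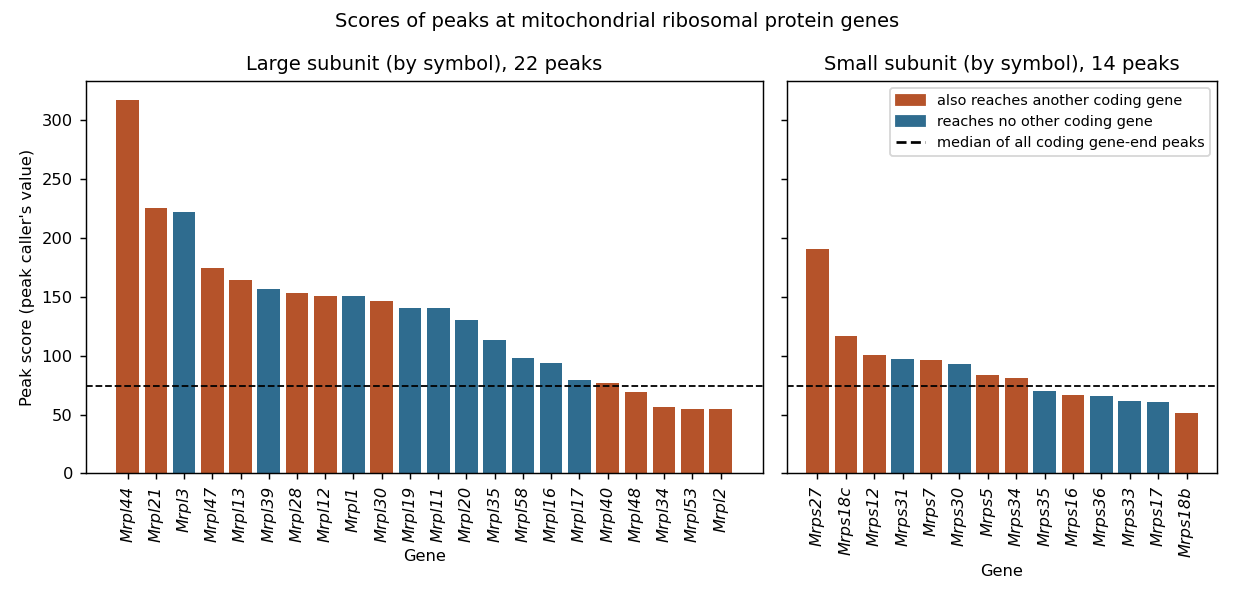
Score of the peak at each Mrpl gene (left) and Mrps gene (right) that carries one, on a linear axis from 0. Bars are coloured by whether the peak also reaches an end of another protein-coding gene, and the dashed line is the median of all protein-coding gene-end peaks, 74.4. Mrpl44 is the highest at 318 and Mrps18b the lowest at 51.4.

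The median width of the 36 peaks was 670.5 bp (quartiles 617 and 796.5), against 788.5 bp for all protein-coding gene-end peaks (quartiles 635 and 1014) and 685 bp for the whole list (quartiles 560.5 and 911). Mrpl peaks had a median of 665 bp and Mrps peaks one of 713.5 bp. The cytosolic ribosomal protein genes, which encode the ribosome that makes these proteins, had other values in both measures, where 55 peaks at 51 of 87 such genes gave a median width of 1060 bp and a median score of 72.9. The quartiles of the widths were 617 and 796.5 bp at the mitochondrial genes and 781.5 and 1331 bp at the cytosolic genes, with no test made. Only 2 of the 36 peaks were wider than 1000 bp, those at Mrps18b with 3494 bp and Mrpl58 with 1960 bp, and neither was centred on its gene's start.

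**Figure D3:**
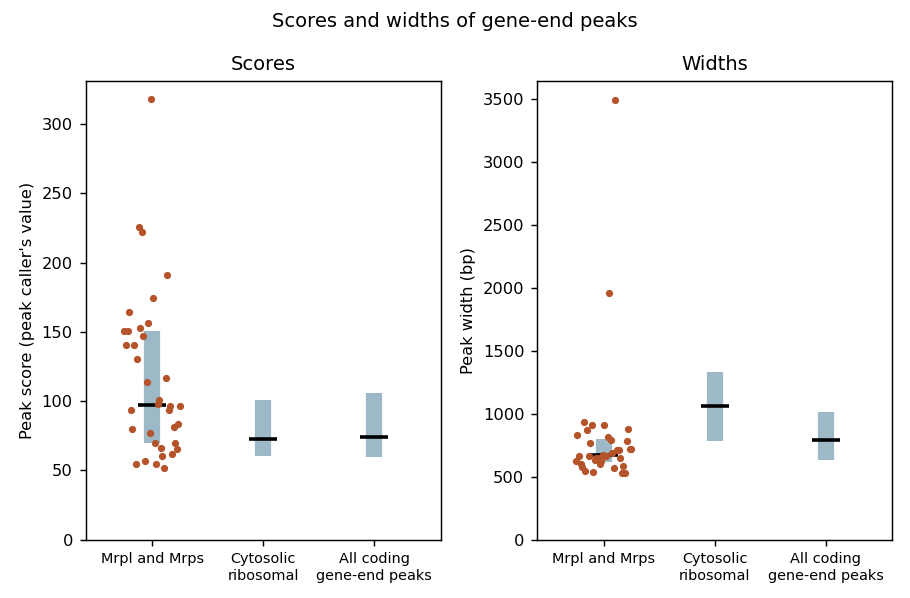
Scores (left) and widths in bp (right) of peaks at Mrpl and Mrps genes, at cytosolic ribosomal protein genes and at all protein-coding gene ends. Thick bars span the quartiles, black marks are medians and dots are the 36 single peaks. Median widths are 670.5, 1060 and 788.5 bp.

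The peaks lay on transcription starts. A listed start was available for 69 of the 78 genes and for 32 of the 36 with a peak, and the strand it gives separates the start of a gene from its other end. In 28 of the 32 the peak covered a listed start, and 31 were nearest to the start rather than the other end. The midpoint was within 200 bp of the start in 26 of 32 (81.2%), against 58.7% of the 2529 protein-coding genes with a peak and a listed start. Of these 32 midpoints, 19 lay upstream and 13 downstream, with a median offset of -24.75 bp, upstream being negative. Over the 2529 protein-coding genes the median offset of the highest peak was -51.5 bp. All 8 members longer than 10 kb with a peak and a listed start had that start inside the peak. Covered starts and nearest ends were not counted over all protein-coding genes.

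Some starts lie inside the gene record, and these change how a peak reads. The Mrpl1 peak lay 313 bp from the record's end but its midpoint was 6.5 bp from a listed start. At Mrps31 the peak edge was 680 bp from the record's end, the farthest of the 36, and its midpoint 52 bp from a start. The Mrpl48 peak, 550 bp from the end, covered a start 203 bp from its midpoint. No peak was between 680 bp and the 1 kb limit. Just outside the limit, the edge of the nearest peak lay 1050 bp from an end of Mrpl4 and 1092 bp from an end of Mrpl22.

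The exceptions were few. Mrps12 and Mrpl40 had peaks centred 432 and 347.5 bp upstream, which stopped 37 and 36 bp short of the gene. The Mrpl20 peak was centred 689 bp downstream of the start. At Mrps18b the wide peak covered the start near its edge and was centred 1552.5 bp upstream, toward Ppp1r10 and the microRNA gene Mir1894. The Mrpl58 peak covered the gene's other end, 9375.5 bp from its start (chr11:115412148-115414107). It also reached the tRNA genes n-TRcct3, n-TRcct5 and n-TRtcg4, and whether it belongs to Mrpl58 cannot be told from the list.

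**Figure D4:**
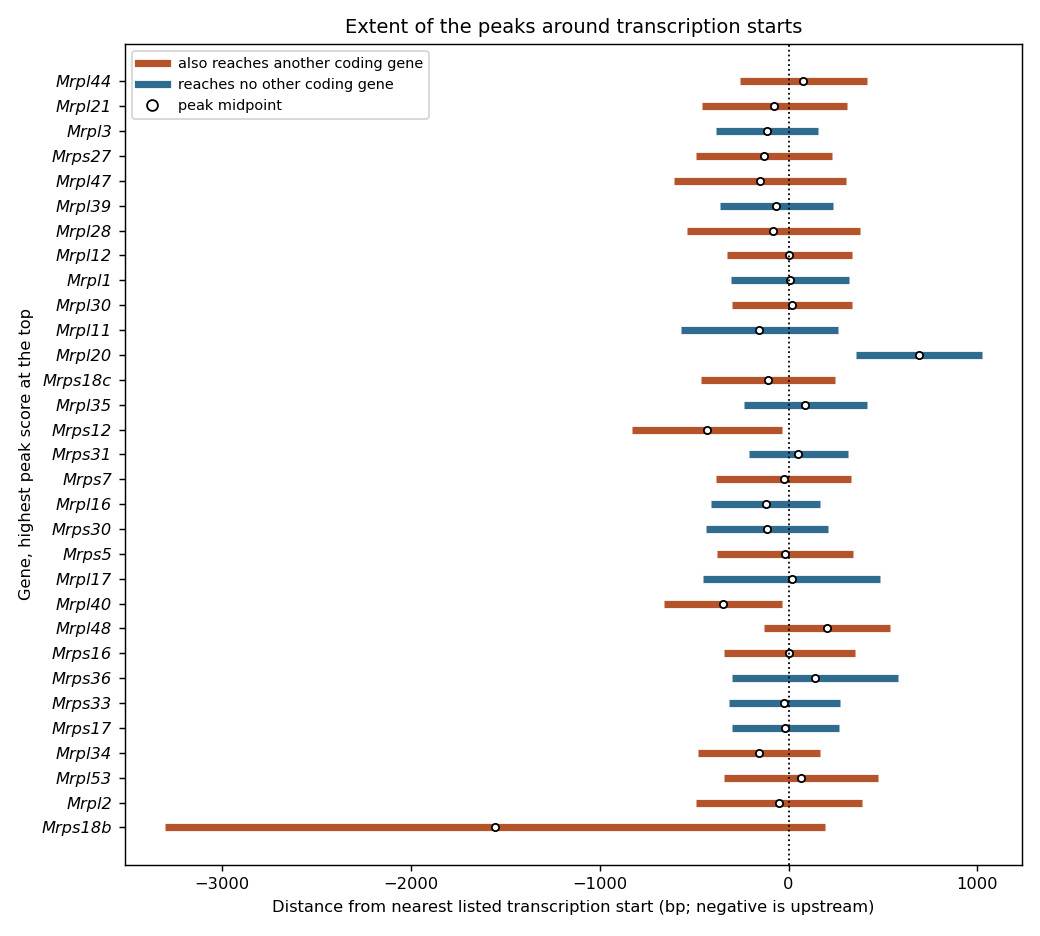
Extent of 31 peaks around the nearest listed transcription start of the Mrpl or Mrps gene, in bp, with upstream to the left. Lines are peaks, circles midpoints, and genes run from the highest score at the top to the lowest. Most peaks straddle 0, while those of Mrpl20, Mrps12, Mrpl40 and Mrps18b are displaced.

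By the 1 kb rule most of the peaks lay where 2 genes meet, at a share like that of close neighbours among all members. In 20 of the 36 genes (55.6%, interval 38.1 to 72.1%) the peak also reached an end of another protein-coding gene. The share was 39.8% over all protein-coding genes with a peak. With or without a peak, 44 of the 78 members (56.4%) had another coding gene end within 1 kb of an end, against 24.8% of protein-coding genes. The share was 12 of 22 for Mrpl and 8 of 14 for Mrps genes. In 17 of the 20 the peak covered an end of the partner. Strand was known for both genes in 16 pairs, of which 13 were on opposite strands with the partner's start reached and 3 on the same strand with the partner's other end reached. In 12 of the 20 the midpoint was nearer to the partner's end than to the member's. A shared peak therefore cannot be given to either gene. Counting only starts in both genes, 12 of 33 members had a shared peak (36.4%), and the share over all genes was not computed for this version.

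Among the 20 partners, 3 that also act in mitochondria are described first, and no background share of such partners was computed. The Mrps12 peak covered the start of Sars2, the mitochondrial seryl-tRNA synthetase, 136 bp from the Mrps12 start, with its midpoint 296 bp from Sars2 and 432 bp from Mrps12. The Mrps27 peak covered the start of Ptcd2, a mitochondrial RNA-binding protein, 89 bp away. The Mrpl47 peak covered the start of Ndufb5, a subunit of respiratory complex I, 302 bp away. In all 3 cases the 2 genes run in opposite directions.

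The other partners on the opposite strand had varied functions. The gene records overlapped by their ends at Mrpl21 and Ighmbp2, a helicase gene, whose ends lay 13 bp apart, and at Mrpl2 and Klc4, a kinesin light chain gene, 17 bp apart. The distance between ends was 28 bp at Mrpl30 and Mitd1, which acts in cell abscission, and 98 bp at Mrps18c and Helq, a DNA helicase gene. Hira, a chaperone of histone H3.3, began 113 bp from Mrpl40, and the peak midpoint was nearer to Hira, at 234.5 bp. Ppp1r10, a regulatory subunit of protein phosphatase 1, began 72 bp from Mrps18b. Abhd8 lay 219 bp from Mrpl34, and Zfp661, a zinc finger gene, 332 bp from Mrps5. Gga3, a Golgi adaptor gene, had its end 377 bp from that of Mrps7, inside Mrps7, and outside the peak but within the 1 kb window. The Rab6a start, of a Golgi GTPase, was inside the Mrpl48 peak, 156 bp from its midpoint.

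The last partners were not shown to be divergent. The peaks of Mrpl28, Mrpl12 and Mrps16 reached the far ends of Pgap6, Hgs and Cfap70, which lie on the same strand. Only the Pgap6 end was inside the peak, and the ends of Hgs and Cfap70 were 658 and 561 bp from the midpoints. Wdfy1 at Mrpl44, Mtbp at Mrpl13, Ccdc142 at Mrpl53 and Eme2 at Mrps34 had ends inside the peaks, 46.5, 91, 52 and 4.5 bp from the midpoints, with the relative strand not determined here. Shared and unshared peaks had median scores of 98.5 and 97.4, and median widths of 713.5 and 634 bp. Over all protein-coding gene-end peaks, shared peaks were also the wider, with medians of 873 and 760 bp, and the median scores were 77.0 and 73.6.

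Members with and without a close neighbour carried peaks at similar shares. Of the 24 members with a coding start on the other strand within 1 kb upstream, 11 carried a peak (45.8%), and of the 45 without one 21 did (46.7%). This count used listed starts, so Mrpl34 and Mrpl48 fall among the 45, as the listed Abhd8 start is 1269 bp upstream of Mrpl34 and that of Rab6a 36 bp downstream of an Mrpl48 start. Over all protein-coding genes the shares were 39.4% with such a divergent start and 12.1% without. Divergent starts were found at 34.8% of members and 8.48% of protein-coding genes. Counting any coding gene end within 1 kb, 21 of 44 members with a neighbour and 15 of 34 without one carried a peak. The corresponding shares of protein-coding genes were 26.4% and 9.74%. The contrast between the members and all genes was not tested.

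The only divergent pair formed by 2 members had no peak. Mrpl46 and Mrps11 start 42 bp apart on chromosome 7, and the nearest peak midpoint was 480 kb from Mrps11. The Mrps11 promoter is shown because the Mrpl46 start lies within it, and was chosen after its values were seen. It holds 1 match each to AAGATGGCG (YY1) and GGGCGG (SP/KLF family), in capitals. The Mrpl46 promoter, which reaches farther the other way, holds GGGCGG and TATAAA and not AAGATGGCG.
Mrps11, chr7:78782881-78783180, plus strand: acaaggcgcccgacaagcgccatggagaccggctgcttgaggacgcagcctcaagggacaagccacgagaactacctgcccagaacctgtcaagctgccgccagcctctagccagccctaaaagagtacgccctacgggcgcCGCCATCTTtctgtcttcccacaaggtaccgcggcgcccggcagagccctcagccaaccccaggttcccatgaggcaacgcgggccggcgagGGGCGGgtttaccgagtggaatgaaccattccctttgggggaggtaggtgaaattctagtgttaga

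The other divergent members without a peak had partners such as Psma2, a proteasome subunit gene, at Mrpl32, Twnk, the mitochondrial DNA helicase gene, at Mrpl43, and Fau, the gene of a ribosomal protein fusion, at Mrpl49. Tcp1, a chaperonin subunit gene, is the divergent partner of Mrpl18. At each of these 4 members no gene-end peak was listed.

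Promoters of members with and without a peak had similar medians of base composition. The 32 promoters of members with a peak had a median GC content of 57.7% (quartiles 52.7 and 64.4%), and the 37 without one had 58.7% (quartiles 56.3 and 63.3%). The median number of CpG dinucleotides in the 300 bases was 19.5 with a peak and 22 without. Over all protein-coding genes it was 21 with a peak and 10 without. None of the 69 members had fewer than 5 CpG, a class that holds 5097 of 17492 protein-coding genes and in which 1.90% carried a peak. For each gene the most upstream listed start was used, and members were split by gene-end peak, so Mrpl58 counts as having one and Mrps2 and Mrps23 as having none.

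In each class of CpG number that held members, their share with a peak was above that of all protein-coding genes. With 10 to 19 CpG, 14 of 29 members had a peak (48.3%), against 21.5% of protein-coding genes. With 20 to 29 CpG, 12 of 29 did (41.4%), against 27.2%. With 30 or more, 4 of 9 did (44.4%), against 17.4%. Both members with 5 to 9 CpG, Mrpl44 with 7 and Mrpl20 with 8, had a peak, where the share of protein-coding genes was 7.42%. These shares are a description of 1 list and the differences were not tested.

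**Figure D5:**
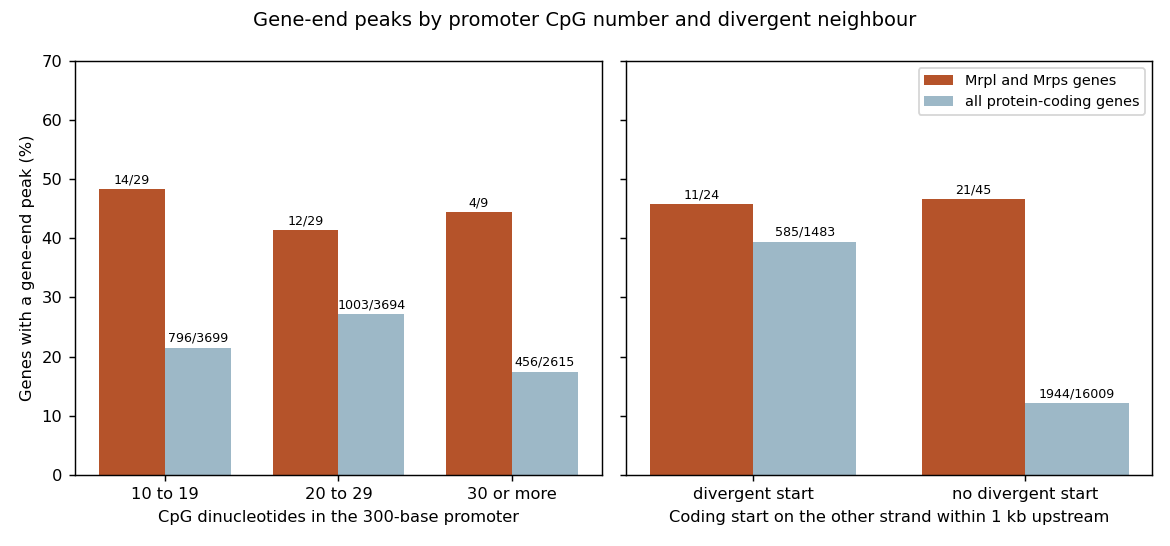
Percent of genes with a gene-end peak among Mrpl and Mrps genes (left bar of each pair) and all protein-coding genes (right bar), by number of CpG in the promoter (left panel, classes with at least 5 members) and by presence of a divergent coding start (right panel). Counts stand above the bars. Members stand at 45.8% with and 46.7% without a divergent start, all genes at 39.4% and 12.1%.

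The ETS motif was about as frequent in members with a peak as in those without. CCGGAAG, bound by ETS family factors, was found on either strand in 11 of 32 promoters with a peak (34.4%) and 13 of 37 without (35.1%). Its share was 24.9% of promoters of all protein-coding genes with a peak and 11.9% of all protein-coding promoters. Among the highest peaks it was found in Mrpl21, Mrpl3 and Mrps27. AAGATGGCG (YY1) was in 2 of 32 with a peak and 6 of 37 without, and in 1.92% of protein-coding promoters. The fixed string of the NRF1 motif was in 1 of 32 with a peak, Mrpl39, and 2 of 37 without, and in 1.33% of all. Other forms of this motif, such as the stretch in the Mrpl44 promoter, were not counted. Whether Mrpl39 is alone in carrying an NRF1 motif is therefore not shown.

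Of the other motifs, CCAAT was about as frequent as in all genes. CCAAT (NF-Y) was in 13 of 32 promoters with a peak and 14 of 37 without, 40.6% and 37.8%, and in 39.2% of all protein-coding promoters. GGGCGG (SP/KLF family) was in 14 of 32 with a peak (43.8%) and 20 of 37 without (54.1%). Its share was 61.9% of promoters of all protein-coding genes with a peak and 46.3% of all protein-coding promoters. CACGTG, the E-box, was in 3 and 2, TATAAA, the TATA box, in 2 and 2 (6.25% and 5.41%), and TGACGTCA, the CRE, in 1 and 1. Their shares of all promoters were 7.91%, 13.3% and 2.33%. The ZNF143 motif was in none of the 69 and in 0.44% of all. GGGCGG can overlap other GC-rich motifs, a palindrome such as CACGTG reads alike on both strands, and a match is a stretch of letters and not a site shown to be bound.

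No gene-end peak was listed for 42 members. By symbol, the Mrpl genes among them were Mrpl4, Mrpl9, Mrpl10, Mrpl14, Mrpl15, Mrpl18, Mrpl22, Mrpl23, Mrpl24, Mrpl27, Mrpl32, Mrpl33, Mrpl36, Mrpl37, Mrpl38, Mrpl41, Mrpl42, Mrpl43, Mrpl45, Mrpl46, Mrpl49, Mrpl50, Mrpl51, Mrpl52, Mrpl54, Mrpl55 and Mrpl57. The Mrps genes were Mrps2, Mrps6, Mrps9, Mrps10, Mrps11, Mrps14, Mrps15, Mrps18a, Mrps21, Mrps22, Mrps23, Mrps24, Mrps25, Mrps26 and Mrps28. Mrpl10, whose bacterial homolog carries the L7/L12 stalk, had no peak while Mrpl12 did. Of the 3 relatives of bacterial S18, Mrps18b and Mrps18c had a peak and Mrps18a had none. The median gene length was 7.22 kb with a peak and 7.96 kb without, against 17.2 kb for all protein-coding genes.

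At Mrps2 and Mrps23 a peak lay on a listed start inside the gene record, away from both of its ends. The Mrps2 peak (score 65.4, chr2:28467706-28468385) had its midpoint at -20.5 bp from the listed start, which lies inside the record. At Mrps23 a peak of score 51.2 (chr11:88203700-88204589) covered a listed start, also inside the record, with its midpoint at -243.5 bp. When peaks were counted at listed starts alone, 33 of 69 members carried one (47.8%), against 14.2% of protein-coding genes, with Mrps2 and Mrps23 gained and Mrpl58 lost. The 5 nearest midpoints to a gene end without a gene-end peak lay 1.46 kb from both Mrpl22 and Mrpl4, 2.09 kb from Mrps2, 2.71 kb from Mrps10 and 2.72 kb from Mrpl55. Farther off, 34 of the 42 had no midpoint within 10 kb of an end and 15 none within 100 kb. The farthest was Mrpl36, at 1200 kb. None of the 6 annotated pseudogenes with Mrpl or Mrps symbols had a gene-end peak. The share over all annotated pseudogenes was not computed, so this count shows no contrast.

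Other genes of mitochondrial translation carried peaks at shares of 40.0 to 41.2%, against 46.2% of the members and 13.9% of all protein-coding genes. The lists are small, their intervals are wide, and no difference was tested. Of 5 mitoribosomal proteins with other symbols, Aurkaip1 (199) and Ptcd3 (110.0) had peaks and Dap3, Chchd1 and Gadd45gip1 had none. The interval of this share, 5.27 to 85.3%, includes that of all protein-coding genes. Of 17 mitochondrial translation factors 7 had a peak (41.2%, interval 18.4 to 67.1%), led by Lrpprc, an mRNA-stabilizing protein, at 229. Next came Tsfm and Tufm, the elongation factor pair, at 168 and 129, and Gfm2, which acts in ribosome recycling, at 154. Of 30 assembly and RNA factors 12 did (40.0%, interval 22.7 to 59.4%), led by Ybey (161), Trub2 (138), Fastkd2 (103) and Mtg1 (102). Of 17 mitochondrial aminoacyl-tRNA synthetases 7 did (41.2%, interval 18.4 to 67.1%). The highest score was 101 at Sars2, the peak shared with Mrps12, and Fars2 and Vars2 scored 67.3 and 58.6. The cytosolic ribosomal protein genes stood at 51 of 87 (58.6%, interval 47.6 to 69.1%), an interval that overlaps that of the members.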

How the data were processed

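The deposited file is 1 peak list with a score for each peak. MACS, run in Galaxy, made the peak calls, per the file headers. Bowtie, Picard and the mouse build mm10 are named in the submitters' processing notes. No source used here gives versions, settings or the use of the IgG library, and the scale of the deposited score is not stated. The score was used only within the list.

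Peak starts were converted to 1-based positions. Gene ends came from a RefSeq table on GRCm38.p6, which corresponds to mm10, and starts, strand and promoter sequences from the RefSeq promoter table, which matched 69 of 78 members by gene ID. A gene carried a peak when the peak overlapped by at least 1 bp the 1 kb to either side of an annotated end. Where a gene has several peaks, the highest-scoring one was used. The overlap step was tested on simulated peaks. Intervals are exact Clopper-Pearson 95% intervals, and those of medians are from order statistics. No test was run, as there is 1 library per antibody. Exon and intron positions were not analysed here.

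The members and lists were chosen with earlier results of these data known. All members are accounted for. The 12 highest-scoring peaks, the members with a shared peak, the 5 nearest misses and up to 4 genes of each related list are named. A gene that this rule selects is not reported here. The split by protein family, the classes of CpG number, the divergent starts, the assignment by assembled particle and the removal of 10 S6 kinase genes from the cytosolic list were chosen after seeing the data. Python 3.11.15, pandas 2.3.3, numpy 2.4.6, scipy 1.17.1 and matplotlib 3.10.9 were used.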

Additional observations from a re-analysis of the deposited data

How the results depend on the processing

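The alternatives were a score at or above the median of the list, windows of 500 bp and 5 kb, at least 50% of a peak inside the window, the midpoint in place of overlap, listed starts alone, merging of peaks within 1 kb, neighbours of all gene kinds and the subunit by assembled particle. Of 52 recomputed values, 50 stayed within 1.5 times the count or within the 95% interval of the median. Small subunit genes with a peak numbered 8 instead of 14 with the stricter score, so the 2 subunits then stood at 18 of 49 for Mrpl and 8 of 29 for Mrps genes. Members at shared peaks numbered 12 instead of 20 with listed starts alone, which leaves out ends of transcription and genes with no start in the table. The members with a peak numbered between 26 and 43 over all settings. The 5 kb window added 7 genes, giving 55.1% of members against 18.3% of protein-coding genes. The 500 bp window dropped Mrpl48 and Mrps31, giving 43.6% against 13.0%. The midpoint and 50% rules each dropped Mrps18b, giving 44.9% against 13.1%. With 97 cytosolic genes, S6 kinases included, their share was 52.6%. No paired analysis was possible because each antibody has 1 library and the list holds no sample values. The lowest score of 50 and the unknown depth limit what the absence of a peak can show.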
